A study of Mus musculus with 10 samples.

Results

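Npm2, H1foo, Trim28, Zfp57, Smarca4, Hira and Ctcf encode chromatin proteins that the oocyte stores and passes on to the embryo. H3K4me3 over these 7 genes was examined in fully grown oocytes that lack the methyltransferase SETD1B. The members were chosen by name, as all 5 kb windows that the deposited table lists under a member gene, which gave 58 of the 544879 windows. Hira had 19 of them, Smarca4 18, Ctcf 10, H1foo, Trim28 and Zfp57 3 each, and Npm2 2. The window that holds the Hira TSS is listed under its neighbour Mrpl40, so it is not among the 58 and is given beside them.

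H3K4me3 was measured by ULI-nChIP-seq, a native low-input ChIP-seq, in germinal vesicle (GV) oocytes of 21-day-old C57BL6 females. All oocytes were labelled as from Setd1b floxed/floxed females. By the study's methods, Gdf9-Cre deletes from early folliculogenesis onwards. The Setd1b cKO (N = 3, replicates 1, 3 and 4) was Gdf9-Cre positive, and the WT (N = 3, replicates 1, 2 and 4) was Gdf9-Cre negative. These genotypes are those of the labels, and the study's methods also allow WT females with 1 conditional allele and Gdf9-Cre. Each library pooled about 200 oocytes, and 2 input libraries per genotype were made without precipitation. Values are enrichment-normalized RPKM, a linear scale on which the 40th percentile of windows (1.23) and the 99th percentile (6.77) are the same in every library. The 6 H3K4me3 libraries held 10856015 to 32775874 reads in windows, and 1 read was worth between 0.0300 (WT replicate 4) and 0.132 (cKO replicate 3) normalized RPKM. In a window of Setd1b itself (chr5:123145001-123150000, which does not hold its TSS) the cKO libraries had 2.17, 3.21 and 3.25 and the WT libraries 8.34, 9.69 and 7.37 normalized RPKM. In the other windows listed under Setd1b the groups overlapped, with cKO minus WT from 0.101 to 0.377.

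H3K4me3 is a mark of active promoters that most cells restrict to the region around the TSS, whereas growing oocytes also gain it in broad domains away from promoters. It is written by the SETD1 and MLL families of methyltransferases, several of which are guided to unmethylated CpG dinucleotides through CXXC domains. The genes described here act at different steps of chromatin preparation: histone exchange and packing (NPM2, H1FOO and HIRA), protection of imprints (ZFP57 and TRIM28), nucleosome remodelling (SMARCA4) and genome folding (CTCF).

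The sequence before the TSS differed widely among the members. RefSeq promoters (GRCm38.p6, the 250 bases before the start) were matched for 6 of the 7 genes, all on the + strand. The following 4 are shown because they belong to the members with the largest differences at the TSS and, for comparison, to the oocyte gene H1foo. CpG dinucleotides are in capitals.
H1foo (RefSeq symbol H1f8), chr6:115944681-115944930: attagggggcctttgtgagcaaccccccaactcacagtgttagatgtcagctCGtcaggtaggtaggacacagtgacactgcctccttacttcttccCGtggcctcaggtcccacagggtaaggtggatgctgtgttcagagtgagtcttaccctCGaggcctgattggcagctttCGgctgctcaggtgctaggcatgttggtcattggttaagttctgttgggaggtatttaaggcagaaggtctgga
Zfp57, chr17:37002275-37002524: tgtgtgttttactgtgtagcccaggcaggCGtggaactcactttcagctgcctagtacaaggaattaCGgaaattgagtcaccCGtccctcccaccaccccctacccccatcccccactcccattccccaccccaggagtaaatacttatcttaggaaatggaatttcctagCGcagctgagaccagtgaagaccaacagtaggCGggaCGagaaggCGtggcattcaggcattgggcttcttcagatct
Trim28, chr7:13023902-13024151: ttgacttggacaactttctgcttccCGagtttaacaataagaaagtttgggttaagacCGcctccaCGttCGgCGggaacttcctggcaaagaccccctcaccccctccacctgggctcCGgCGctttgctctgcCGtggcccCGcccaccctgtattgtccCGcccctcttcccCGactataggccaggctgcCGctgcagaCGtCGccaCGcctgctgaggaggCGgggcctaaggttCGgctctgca
Smarca4, chr9:21615919-21616168: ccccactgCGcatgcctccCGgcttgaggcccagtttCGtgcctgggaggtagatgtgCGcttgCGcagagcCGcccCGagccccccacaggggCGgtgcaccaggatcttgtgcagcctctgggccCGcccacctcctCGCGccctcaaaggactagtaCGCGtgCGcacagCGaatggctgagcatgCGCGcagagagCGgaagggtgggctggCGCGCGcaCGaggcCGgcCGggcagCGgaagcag

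The H1foo promoter held 4 CpG dinucleotides and that of Zfp57 held 7, close to the median of 6 over 27025 RefSeq promoters of the same length. RefSeq lists 2 further Zfp57 starts, with 6 and 3 CpG, and the one shown is at the TSS used here. Trim28 had 17, Smarca4 25, Hira 29 and Ctcf 40 in their 250 bases. At least as many CpG as in H1foo were found in 61.9% of all promoters, as many as in Zfp57 in 46.5%, as many as in Trim28 in 23.6%, as many as in Smarca4 in 10.3%, as many as in Hira in 6.43% and as many as in Ctcf in 1.30%. The 5 kb windows around the TSS of these genes showed the same split, with 62 CpG for H1foo and 91 for Zfp57, against 148 for Smarca4, 199 for each of Trim28 and Hira and 246 for Ctcf. The TSS window of Npm2, which had no matched promoter, held 59 CpG.

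All 7 genes carried H3K4me3 at the TSS in WT oocytes. The WT means of the TSS windows lay between 4.32 and 5.84 normalized RPKM, at percentiles 90.0 to 97.4 of all windows and 61.8 to 86.2 of the 20475 windows that hold a protein-coding TSS. In decreasing order the WT means were 5.84 (Zfp57), 5.36 (Trim28), 5.34 (Npm2), 5.27 (Hira), 4.44 (H1foo), 4.41 (Ctcf) and 4.32 (Smarca4). Each gene overlapped its neighbour in this order across the 3 libraries, except that every Hira value was above every H1foo value. In the cKO the order was Trim28 (6.55), Hira (5.52), Ctcf (4.89), Npm2 (4.52), H1foo (4.31), Zfp57 (4.18) and Smarca4 (3.23), and every neighbouring pair overlapped. Zfp57 was first in WT and sixth in the cKO, and Smarca4 had the lowest mean in both genotypes.

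No member window passed the test of a difference between the genotypes. With limma on the deposited values and Benjamini-Hochberg adjustment over all windows, 0 of 58 windows passed an adjusted p of 0.05, where 1.02% of all windows passed (0.563% as gains and 0.454% as losses). Of the protein-coding TSS windows 1.24% were gains and 0.733% losses. The lowest adjusted p of a member window was 0.181 (Smarca4 TSS, limma), and 4 windows had an unadjusted p under 0.05, those of the Smarca4, Trim28 and Zfp57 TSS and 1 at the 3′ end of Ctcf. Of all 544879 windows 81430 had an unadjusted limma p under 0.05, and of the 20475 protein-coding TSS windows 4969 did. With an intensity trend in limma 0 member windows passed (3.58% of all windows did), with 7 at an unadjusted p under 0.05 (95428 of all 544879 windows). With edgeR on whole reads 0 passed (2.29% of windows tested), with 3 at an unadjusted p under 0.05 (66326 of 503726 windows tested). The 95% intervals of the differences at the 7 TSS windows were between 1.54 and 2.75 normalized RPKM wide.

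**Figure D1:**
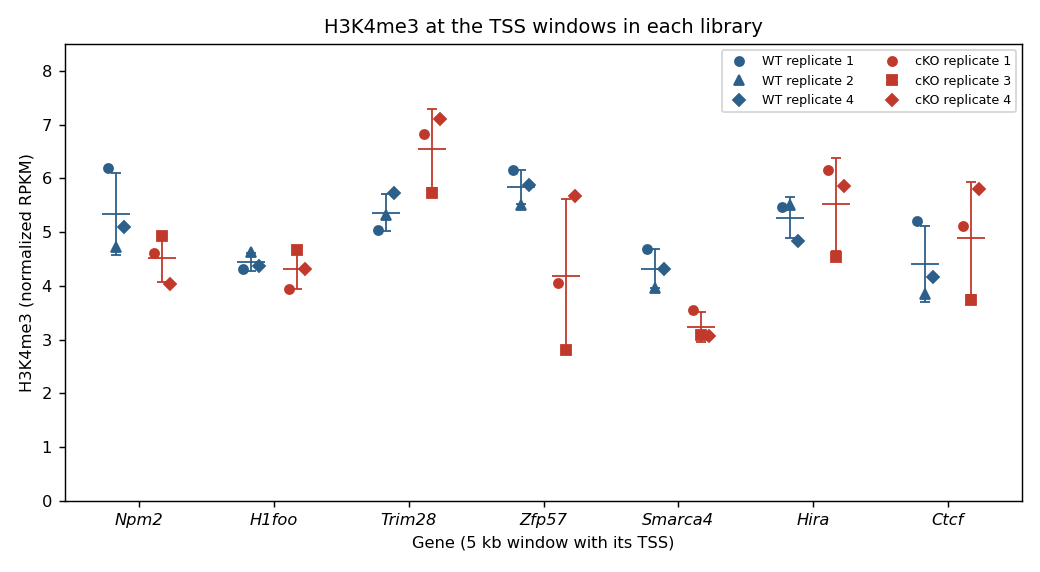
H3K4me3 (normalized RPKM, vertical axis) in the 5 kb window with the TSS of each gene, with each library as a point (blue WT, red cKO, symbols by replicate) and the mean ± SD of 3 libraries as a bar. Smarca4 is the only gene whose 3 cKO libraries (3.06 to 3.56) all lie below its 3 WT libraries (3.95 to 4.68), and the cKO values of Zfp57 spread from 2.81 to 5.67.

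Among the genes of histone exchange and packing, Npm2 encodes an oocyte nucleoplasmin, a histone chaperone of the egg nucleus. Its TSS window (chr14:70650001-70655000, - strand, TSS at 70653084, overlapped by Xpo7) had 4.61, 4.93 and 4.03 normalized RPKM in the cKO (in the order of replicates 1, 3 and 4, kept throughout) and 6.20, 4.73 and 5.10 in WT (replicates 1, 2 and 4). WT replicate 1 was the highest and the groups overlapped. The means were 4.52 ± 0.457 in the cKO and 5.34 ± 0.764 in WT (SD, n = 3), a difference of -0.821 (SE 0.451, 95% interval -1.82 to 0.182, limma adjusted p = 0.444). Without WT replicate 1 it was -0.392. The depth-scaled reads over the input were 2.35, 1.65 and 1.47 in the cKO and 4.39, 2.52 and 2.72 in WT. On this ratio, which is not adjusted for the enrichment of a library, the groups did not overlap. The other Npm2 window, further into the gene, was low, with 1.67, 3.21 and 2.05 in the cKO and 1.54, 1.81 and 2.13 in WT. The annotated gene reaches further 5′, to 70659244, in a window listed under Xpo7 (chr14:70655001-70660000). That window had 4.83, 4.27 and 5.33 in the cKO and 4.89, 3.76 and 4.32 in WT (difference 0.487, limma adjusted p = 0.557).

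H1foo encodes the oocyte linker histone, which is replaced by somatic H1 in the early embryo. Its TSS lies near the end of its window (chr6:115940001-115945000, + strand, TSS at 115944938), so this window mostly covers upstream sequence. The cKO libraries had 3.95, 4.66 and 4.31 and the WT libraries 4.32, 4.63 and 4.38 normalized RPKM. The WT range lay within the cKO range, and the difference was -0.134 (SE 0.347, 95% interval -0.905 to 0.636, limma adjusted p = 0.864), the smallest among the 7 TSS windows. The next window, which holds most of the gene, had 3.28, 3.87 and 3.50 in the cKO and 3.79, 4.24 and 3.72 in WT, a difference of -0.369 (limma adjusted p = 0.592), with -0.206 without WT replicate 2 and -0.236 without cKO replicate 1. The last window, which H1foo shares with Plxnd1, had 1.95, 5.19 and 4.31 in the cKO and 3.01, 4.15 and 3.45 in WT, and the cKO libraries were the more widely spread.

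Hira encodes the chaperone that deposits the histone variant H3.3 outside replication. The window with its TSS (chr16:18875001-18880000, + strand, TSS at 18877066) also holds the TSS of Mrpl40, so their signals cannot be told apart. It had 6.16, 4.53 and 5.86 in the cKO and 5.47, 5.51 and 4.83 in WT. The lowest and the highest of these 6 values were both cKO, and the difference was 0.250 (SE 0.467, limma adjusted p = 0.804), with -0.0734 without cKO replicate 1 and 0.744 without cKO replicate 3. On whole reads with edgeR the sign turned, with a log2 fold change of -0.09 (adjusted p = 0.959).

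The means of the imprint protection pair differed in opposite directions between the genotypes, and neither difference passed the test. Trim28 encodes the corepressor that KRAB zinc finger proteins recruit to keep chromatin silent. Its TSS window (chr7:13020001-13025000, + strand, TSS at 13024152) had 6.83, 5.72 and 7.11 normalized RPKM in the cKO and 5.05, 5.31 and 5.73 in WT. Only cKO replicate 3 reached down to the highest WT library. The means were 6.55 ± 0.737 and 5.36 ± 0.341 (SD, n = 3), a difference of 1.19 (SE 0.431, 95% interval 0.232 to 2.15, limma unadjusted p = 0.0198, adjusted p = 0.224). The depth-scaled reads over the input were 5.62, 2.82 and 3.67 in the cKO and 3.75, 3.07 and 3.35 in WT, so on this ratio, which is not adjusted for the enrichment of a library, the groups overlapped. With edgeR on whole reads the log2 fold change was 0.11 (adjusted p = 0.950). The annotated gene begins further upstream, at 12999114, in a window listed under Slc27a5 (chr7:12995001-13000000). That window had 3.28, 4.27 and 1.28 in the cKO and 4.37, 4.54 and 4.29 in WT (difference -1.46, limma adjusted p = 0.320).

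Zfp57 encodes the KRAB zinc finger protein that binds methylated imprinting control regions. Its TSS window (chr17:37000001-37005000, + strand, TSS at 37002525) holds the starts of all its annotated transcripts, and no other gene overlaps it. It had 4.06, 2.81 and 5.67 in the cKO and 6.15, 5.51 and 5.87 in WT. The WT libraries lay close together, whereas the cKO libraries were widely spread, and cKO replicate 4 was above WT replicate 2. The means were 4.18 ± 1.43 and 5.84 ± 0.320 (SD, n = 3), a difference of -1.67 (SE 0.617, 95% interval -3.04 to -0.294, limma unadjusted p = 0.0220, adjusted p = 0.234). It was the largest difference in size among the 58 windows, but it was -0.983 without cKO replicate 3 and -2.41 without cKO replicate 4, and the Trim28 TSS difference without cKO replicate 3 was 1.61. Over input, cKO replicate 3 was at 1.06 and cKO replicates 1 and 4 at 2.01 and 1.98, all below the WT libraries at 4.72, 3.18 and 3.43. This ratio is not adjusted for the enrichment of a library. The 3 cKO values of the Zfp57 window rest on 59, 29 and 132 reads.

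Smarca4 encodes BRG1, an ATPase of the BAF and PBAF nucleosome remodelling complexes that is needed maternally for activation of the embryonic genome. Its TSS window (chr9:21615001-21620000, + strand, TSS at 21616169) had 3.56, 3.08 and 3.06 in the cKO and 4.68, 3.95 and 4.32 in WT. All cKO libraries were below all WT libraries, which held for 9.95% of all windows (9.88% had the cKO above). The means were 3.23 ± 0.282 and 4.32 ± 0.364 (SD, n = 3), a difference of -1.08 (SE 0.357, 95% interval -1.88 to -0.291, limma unadjusted p = 0.0123, adjusted p = 0.181). Over input the cKO libraries had 1.96, 1.30 and 1.34 and the WT libraries 3.79, 2.53 and 2.74, again without overlap. This ratio is not adjusted for the enrichment of a library, and the Npm2 TSS window showed no overlap on it either.

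Ctcf encodes the insulator protein that anchors chromatin loops with cohesin. Its TSS window (chr8:105635001-105640000, + strand, TSS at 105636579, with the starts of Agrp and Gm5914) had 5.11, 3.74 and 5.81 in the cKO and 5.20, 3.86 and 4.17 in WT. Both groups were widely spread and overlapped, and the difference was 0.477 (SE 0.557, 95% interval -0.762 to 1.72, limma adjusted p = 0.672). It ran from 0.0151 without cKO replicate 4 to 1.05 without cKO replicate 3. The sign turned with edgeR, with a log2 fold change of -0.06 (adjusted p = 0.970). The window at the 3′ end of Ctcf (chr8:105680001-105685000) was the highest of its other windows, with 3.28, 3.34 and 3.21 in the cKO and 4.21, 4.73 and 3.66 in WT. The cKO was again below WT without overlap, and the difference of -0.924 (SE 0.372, 95% interval -1.75 to -0.0977) had a limma adjusted p of 0.275.

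The reads per window were 1 limit on the precision of these values. The 7 TSS windows held 29 to 51 reads in cKO replicate 3 and 129 to 186 reads in WT replicate 4, the extremes among the libraries. The square root of the reads corresponds to 0.711 to 0.943 normalized RPKM in cKO replicate 3 and to 0.340 to 0.409 in WT replicate 4. This covers counting error only, and reads without molecular identifiers need not be independent fragments.

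**Figure D2:**
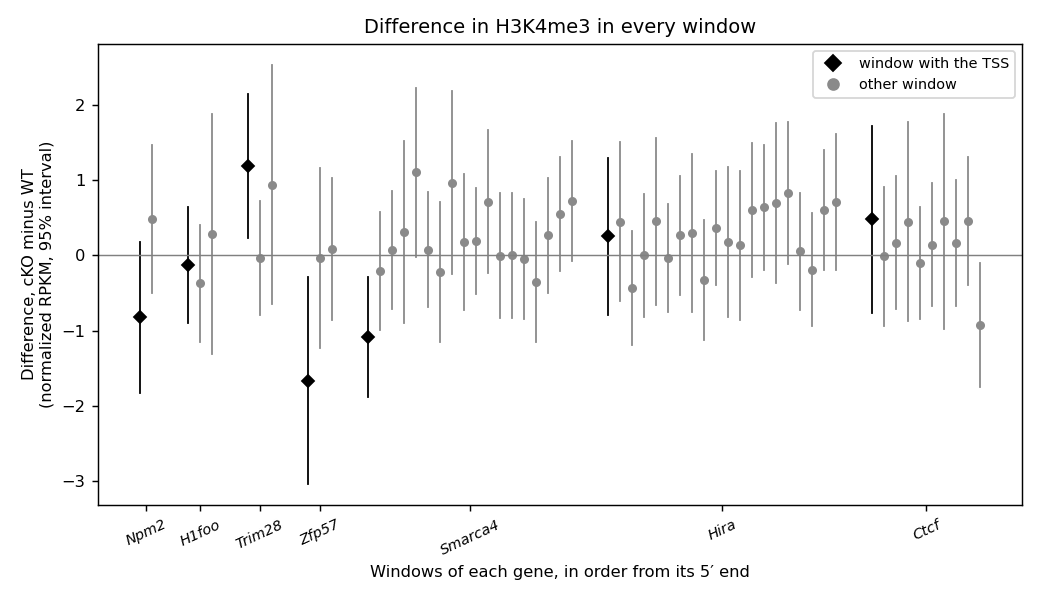
Difference in H3K4me3 between the means of the cKO and WT libraries (normalized RPKM, vertical axis) with its 95% interval from limma, for each window of the 7 genes in order from the 5′ end (diamonds, window with the TSS, including the Hira TSS window). The differences run from -1.67 (Zfp57 TSS) to 1.19 (Trim28 TSS), and 4 of the 58 member windows have an interval that leaves out 0, as do 81430 of all 544879 windows.

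Away from the TSS the long genes were low in both genotypes. The 17 other windows of Smarca4 had WT means of 0.767 to 1.60 with a median of 1.03, and the 19 windows of Hira, most of which the annotated gene Gm28539 also overlaps, had 0.842 to 2.58 with a median of 1.16. In the 9 other windows of Ctcf the WT means ranged from 0.987 to 4.20, of which only the 3′ window was above 2. Depth-scaled reads in windows away from the TSS of the 7 genes were at medians of 0.214, 0.581 and 0.372 times the input in the WT libraries and 0.236, 0.877 and 0.610 times in the cKO libraries, a ratio that is not adjusted for the enrichment of a library. It was highest in cKO replicate 3. The Hira windows peaked at 65.4 kb from the TSS (chr16:18940001-18945000), in a window with the start of 1 further Hira transcript and the pseudogene Gm15798. It had 3.28, 2.81 and 3.54 in the cKO and 3.06, 2.30 and 2.37 in WT (limma adjusted p = 0.481), with cKO replicate 3 below WT replicate 1.

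In the bodies of Smarca4 and Hira, the windows with the largest differences held few reads. In Smarca4 this was chr9:21635001-21640000, which holds the start of 1 further Smarca4 transcript, with 1.45, 3.34 and 1.47 in the cKO and 0.967, 0.937 and 1.05 in WT. The cKO was above WT without overlap, with a difference of 1.10 (SE 0.505, limma adjusted p = 0.344). It was 0.476 without cKO replicate 3, and the WT libraries held 3, 10 and 25 reads there. In Hira it was chr16:18950001-18955000, with 1.12, 2.68 and 1.95 in the cKO and 1.18, 1.03 and 1.05 in WT, where the groups overlapped (difference 0.830, SE 0.425, limma adjusted p = 0.406). This difference was 0.448 without cKO replicate 3 and 1.23 without cKO replicate 1.

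The cKO was more often higher than lower in the member windows, a count that turned with cKO replicate 3. The cKO mean was higher in 39 and lower in 19 of the 58 windows (67.2% higher, against 43.7% of all windows), and the median difference was 0.174 (-0.103 over all windows). Without cKO replicate 3 it was higher in 26 and lower in 32 windows (43.9% of all windows were then higher), with a median of -0.0986. In 45 windows away from the TSS with a WT mean under 2, cKO replicate 3 was the highest of the 3 cKO libraries in 33, whereas it was the highest in 31.5% of all windows with such a WT mean. Windows of 1 gene are neighbours on 1 stretch of DNA and are not independent replicates.

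Windows without overlap between the groups were no more frequent than in the whole table. The cKO was above WT in 5 of 58 windows (9.88% of all windows), all 5 in the body of Smarca4, and below WT in 3 (9.95% of all windows), 1 each at the Smarca4 TSS, in Hira and at the 3′ end of Ctcf. The libraries of the cKO spread more than those of WT in 42 of the 58 windows, and in 73.2% of all windows.

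**Figure D3:**
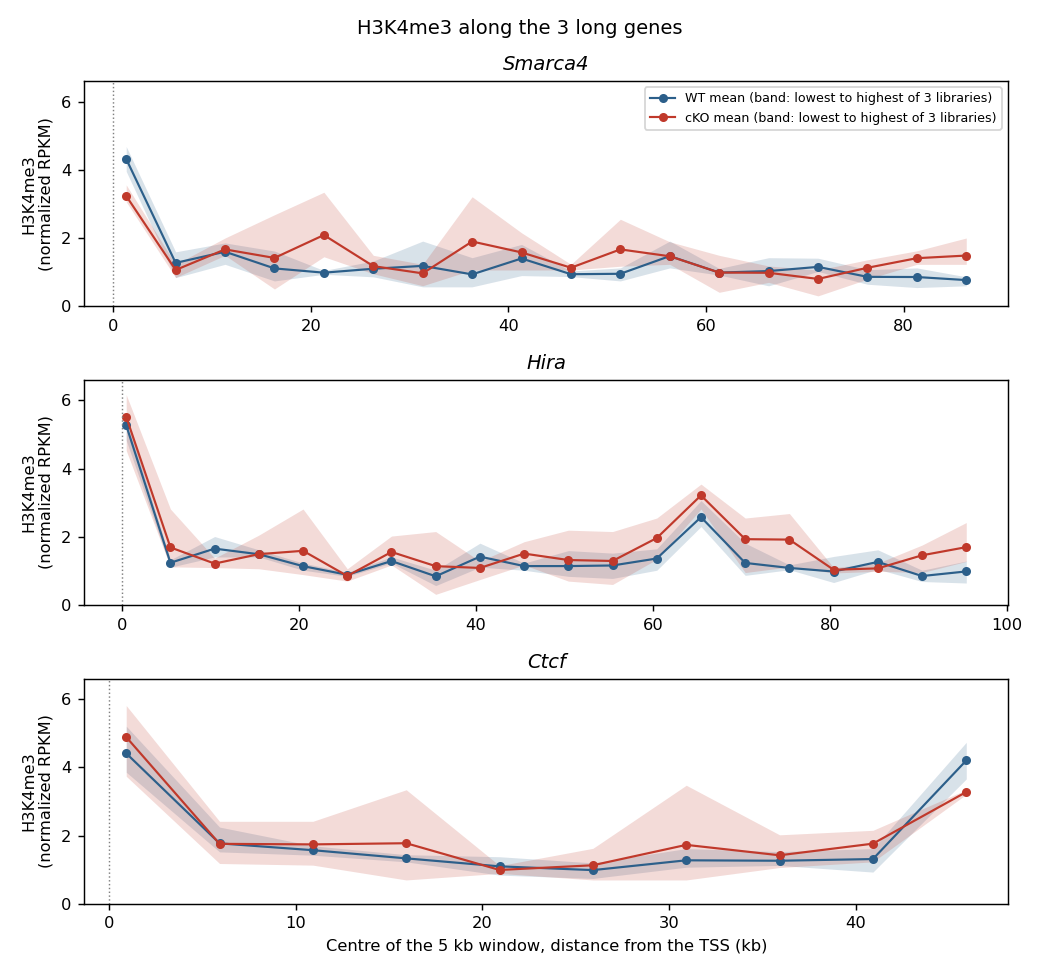
Mean H3K4me3 of 3 libraries (normalized RPKM, vertical axis) in each 5 kb window along Smarca4, Hira and Ctcf, against the distance of the window's centre from the TSS (kb), with a band from the lowest to the highest library (blue WT, red cKO). After the window with the TSS, the WT means of these 3 genes exceed 2 only at 65.4 kb in Hira and in the 3′ window of Ctcf.

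Averaged over all listed windows of a gene, no exact permutation test passed, since 3 libraries against 3 cannot give a two-sided p below 0.1. Trim28 reached that limit, with library means of 4.04, 4.75 and 4.09 in the cKO and 3.27, 3.82 and 3.70 in WT. All 3 cKO means were above WT, but 1 of the 3 windows also holds the TSS of Chmp2a, where cKO replicate 3 had 6.25 and no other library exceeded 3.76. Over the 8 windows that overlap Trim28 in the annotation, the difference was -0.0843 instead of 0.696. Zfp57 averaged 3.20 ± 0.413 in the cKO and 3.74 ± 0.122 in WT (SD, n = 3, exact permutation p = 0.2), with cKO replicate 4 inside the WT range. For the other 5 genes the differences of the means ran from -0.169 (Npm2) to 0.278 (Hira), with exact permutation p between 0.3 and 1. Without cKO replicate 3 the differences were 0.104 for Hira, 0.0116 for Smarca4, -0.126 for Ctcf, -0.414 for H1foo and -0.495 for Npm2.

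The CpG content of the windows is set beside their level as a description. Across the 58 windows, Spearman's rank correlation of the CpG count was 0.265 with the WT mean, 0.386 with the cKO mean and -0.00560 with the difference, and windows of 1 gene share their surroundings. Among the TSS windows, Npm2, H1foo and Zfp57, with at most 91 CpG, had lower cKO than WT means. Trim28, Hira and Ctcf, with at least 199 CpG, had higher cKO means on the normalized scale, but the signs of Hira and Ctcf turned with edgeR, and Smarca4 with 148 CpG was lower. The signs of H1foo (0.0465) and Hira (-0.0734) also turned without cKO replicate 1.

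**Figure D4:**
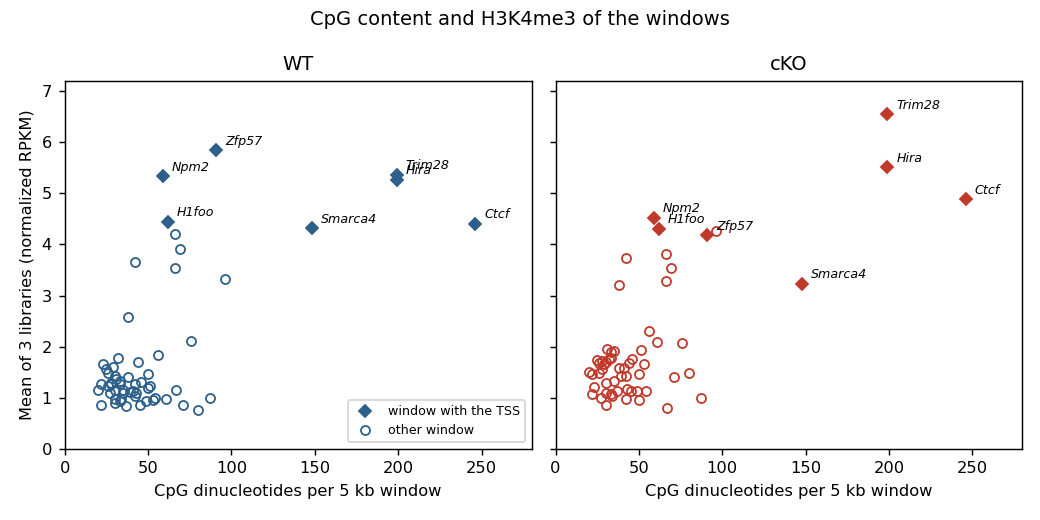
CpG dinucleotides per 5 kb window (horizontal axis) against the mean H3K4me3 of 3 WT libraries (left) or 3 cKO libraries (right, normalized RPKM) for the windows of the 7 genes, with filled diamonds for windows with the TSS. In WT the TSS windows with 59 to 91 CpG sit at 4.44 to 5.84, and in the cKO the same windows sit at 4.18 to 4.52.

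Genes whose TSS windows were most like those of the members over the 6 libraries were found by the root mean square difference in normalized RPKM. For Smarca4 these were Papola (0.131) and Rps9 (0.200), for Trim28 Usf3 (0.138) and Zfp407 (0.214), and for Ctcf Zic2 (0.161) and Slc25a16 (0.175). The Hira TSS window was nearest to a window shared by R3hdm1 and Zranb3 (0.198). Npm2 was nearest to Gjb1 (0.242) and Fbrsl1 (0.246) and H1foo to Dolpp1 (0.220) and Phc3 (0.246). The nearest to Zfp57, Ccn6 (0.424) and Dhrs13 (0.444), were further away than the nearest of any other member.

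The partners of these proteins were then examined at their own TSS windows, over 59 genes in 5 lists. Of these windows, 3 were gains and 1 a loss by limma, where 1.24% of all protein-coding TSS windows were gains and 0.733% losses. The cKO mean was higher in 29 and lower in 30 (54.7% of protein-coding TSS windows were higher), with a median difference of -0.00415 (0.105 over protein-coding TSS windows). With an intensity trend there were 3 gains and 2 losses (3.58% of all windows passed), and with edgeR 1 window passed (2.29% of windows tested did). On either log2 scale limma called 0 of all 544879 windows, and without WT replicate 1, 2 or 4 it called 1, 0 and 0, so these settings say nothing about the 4 calls in particular.

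Among the linker histones and nucleoplasmins, which pack and exchange histones as H1FOO and NPM2 do, 1 of 10 TSS windows was a gain and 0 were losses. That of Hist1h1e, a somatic linker histone (chr13:23620001-23625000, shared with the start of Hist1h2be), had 3.56, 3.87 and 5.38 in the cKO and 2.07, 1.13 and 1.23 in WT. The difference was 2.79 (SE 0.508, limma adjusted p = 0.0394), and it also passed with edgeR (log2 fold change 1.53, adjusted p = 0.00300). It was the largest difference in this list, in which the cKO mean was higher in 6 genes and lower in 4.

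Of the 15 BAF and PBAF subunits that assemble with SMARCA4 or its paralogue, 2 were gains and 0 were losses, with 10 higher and 5 lower in the cKO. Smarcd3 (chr5:24600001-24605000) had 5.83, 6.91 and 7.02 in the cKO and 4.00, 3.76 and 4.23 in WT, a difference of 2.59 (SE 0.404, limma adjusted p = 0.0275). Actl6a (chr3:32705001-32710000), an actin-related subunit, had 6.77, 4.93 and 5.18 in the cKO and 2.90, 2.30 and 3.33 in WT, a difference of 2.78 (SE 0.516, limma adjusted p = 0.0412). All cKO libraries were above all WT libraries at both genes. Neither passed with edgeR, where the log2 fold changes were 0.49 for Smarcd3 (adjusted p = 0.733) and 0.96 for Actl6a (adjusted p = 0.334).

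The TSS window of Smarcd2 (chr11:106270001-106275000), a paralogue of Smarcd3, had 3.95, 4.53 and 4.85 in the cKO and 7.09, 10.5 and 5.81 in WT. The cKO was below WT without overlap, and WT replicate 2 stood well above the others. Its difference of -3.35 (SE 0.941) was the largest of the list in size and did not pass in the main test (limma adjusted p = 0.123), but did with an intensity trend (limma adjusted p = 0.0109). Without WT replicate 2 the difference was -2.01. The mean of the ATPase gene Smarca4 itself was lower in the cKO by 1.08, as given above, a difference that did not pass (limma adjusted p = 0.181).

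The CTCF paralogue and cohesin genes, whose products form loops between CTCF sites, held 1 loss and 0 gains among 15. Smc3, which encodes a core cohesin subunit (chr19:53600001-53605000), had 3.39, 3.08 and 2.92 in the cKO and 7.51, 6.29 and 6.11 in WT. The cKO libraries lay close together and far under WT, a difference of -3.51 (SE 0.427, limma adjusted p = 0.0150), while the edgeR log2 fold change of -1.35 had an adjusted p of 0.164. The cKO mean was higher in 8 and lower in 7 of these genes.

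H3.3 and its chaperones, the partners of HIRA, had 0 calls among 10 genes, with 5 higher and 5 lower. H3f3b, which encodes H3.3, had the largest difference, with 2.89, 2.15 and 2.82 in the cKO and 3.69, 3.08 and 4.86 in WT (difference -1.25, SE 0.478, limma adjusted p = 0.249, -0.761 without WT replicate 4 and -1.98 in the highest window among all its annotated starts). In the list of imprint protection and heterochromatin, which goes with ZFP57 and TRIM28, 0 of 9 genes were called and the cKO mean was lower in all 9 (in 9275 of 20475 protein-coding TSS windows), with differences from -1.40 to -0.00415 and a median of -0.419. The largest was at the TSS window of Uhrf1, shared with Arrdc5, with 6.61, 5.59 and 6.73 in the cKO and 9.18, 7.26 and 6.68 in WT, where the groups overlapped (difference -1.40, SE 0.612, limma adjusted p = 0.319). Without WT replicate 1 the Uhrf1 difference was -0.666.

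**Figure D5:**
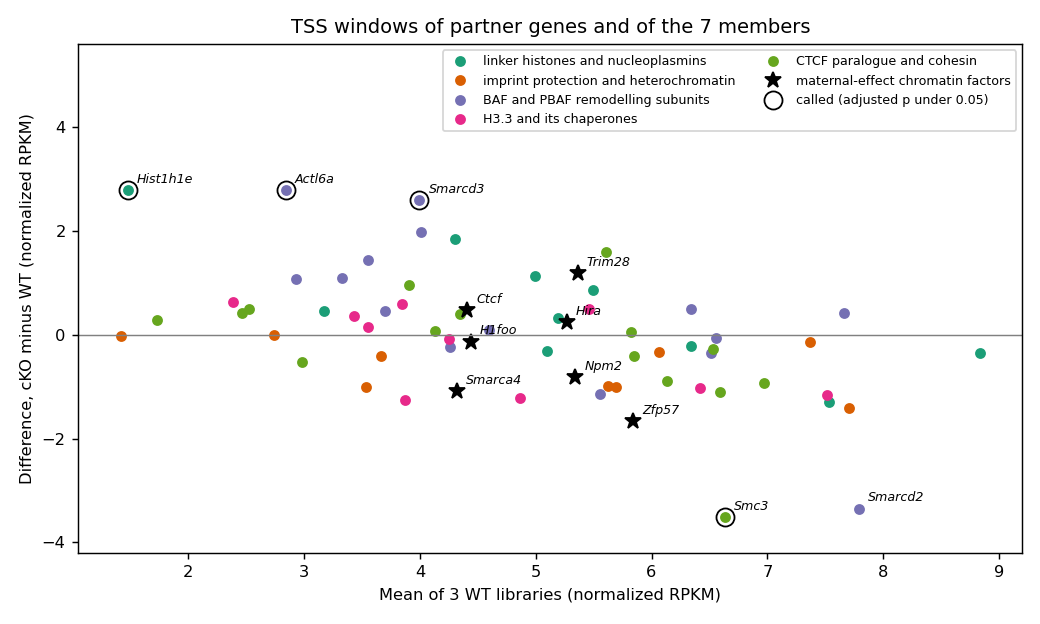
Difference in H3K4me3 between cKO and WT (normalized RPKM, vertical axis) against the WT mean (normalized RPKM, horizontal axis) for the TSS windows of 59 partner genes, coloured by list, and of the 7 genes described here (stars). Circles mark the 4 windows with a limma adjusted p under 0.05, and the stars lie between -1.67 and 1.19, inside the span of -3.51 to 2.79 of the partners.

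Marker genes were read in the same way to check the labelled cell type. The 9 oocyte markers had TSS windows with WT means of 4.69 to 7.79 normalized RPKM, and none was at or below 0 in any library. Their summed level was 53.4 to 59.9 in the WT libraries and 46.0 to 51.3 in the cKO libraries, with 7 genes lower and 2 higher in the cKO (54.7% of protein-coding TSS windows were higher), and a median difference of -1.73. Bmp15, which encodes an oocyte growth factor, had 5.67, 5.06 and 5.23 in the cKO and 9.18, 7.46 and 6.74 in WT (limma adjusted p = 0.0710). Gdf9, whose promoter drives the Cre of the cKO, had 9.99, 12.6 and 9.52 in the cKO and 7.30, 7.94 and 7.13 in WT, in a window shared with Uqcrq (limma adjusted p = 0.0598). With an intensity trend 1 oocyte marker was a gain (Gdf9) and 2 were losses (Bmp15 and Zp2), where 3.58% of all windows passed.

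The 6 granulosa cell markers, which the follicle around the oocyte expresses, had a summed level of 18.4 to 20.9 in WT and 27.2 to 30.3 in the cKO, and the cKO mean was higher in all 6 (median difference 1.41). Foxl2 was a gain (1.24% of protein-coding TSS windows were), with 6.39, 8.36 and 6.44 in the cKO and 4.52, 3.86 and 4.26 in WT (difference 2.85, SE 0.529, limma adjusted p = 0.0415). With edgeR it did not pass (log2 fold change 0.48, adjusted p = 0.744). The sum over both theca cell markers was 4.50 to 5.31 in WT and 6.17 to 9.59 in the cKO. Cyp17a1 was a gain under an intensity trend, where 3.58% of all windows passed, and none of these 8 genes was at or below 0 in any library. The part of other cells in the values of the 7 genes and of their partners was not tested.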

How the data were processed

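H3K4me3 ULI-nChIP-seq values of 3 cKO and 3 WT libraries of GV oocytes, and of 4 inputs, were read from a deposited table of 5 kb windows without overlap. The authors trimmed reads (Trim Galore 0.4.2), mapped them to GRCm38 (Bowtie2 2.2.9, versions from the submitters' processing notes), removed mappings with MAPQ below 20 and left out windows of high input. The authors deposited H3K4me3 as a score on a linear scale, the enrichment-normalized RPKM, for which each library is shifted and scaled. The deposited input values are a signal, reads per window scaled to library size by the authors. Genotypes and replicate numbers came from the labels, and the samples were deposited as biological replicates.

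Reads per window were recovered from the values, which lay at whole multiples of 1 step per library above the value of 0 reads (100% of values, tolerance 0.1 step). The test was limma (version 3.58.1, R 4.3.3, no trend, two-sided, Benjamini-Hochberg over all windows, adjusted p under 0.05). Alternatives were log2 scales, an intensity trend, a mean of at least 1, edgeR 4.0.16 (quasi-likelihood, at least 10 reads, TMM or RLE), a replicate block, leaving out each library and other TSS or windows. Both tests were checked on simulated data with planted changes larger than the differences reported for the members, so the check says nothing about power at those sizes. The TSS was that of the GENCODE M21 transcript with the best APPRIS and support level. Promoter sequences came from RefSeq (GRCm38.p6). Input was compared as reads, scaled to the depth of the library, over the mean of the 2 inputs of a genotype.

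Members and lists were chosen with earlier results of these data known. Named were all 7 members, their TSS windows and the windows of largest difference, partner genes called in limma with or without a trend, the partner with the largest difference in each list, and the 2 genes most like each member. Flanking windows, the counts of higher windows without each library, the marker genes singled out and the windows described beyond this rule were chosen after the values were seen. Further software was matplotlib 3.10.9, pandas 2.3.3, scipy 1.17.1 and numpy 2.4.6 under Python 3.11.15, with the R package data.table (1.17.8).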

Additional observations from a re-analysis of the deposited data

How the results depend on the processing

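No member window passed in limma or edgeR with an intensity trend, over windows with a mean of at least 1, on whole reads with TMM or RLE, or without any 1 library (range 0 to 0). On log2(value + 1) and log2(value + 0.1) limma called 0 of all 544879 windows, and without WT replicate 1, 2 or 4 or cKO replicate 4 it called 1, 0, 0 and 0, so a count of 0 there says nothing about stability. The replicate block gave 1, the Trim28 TSS window (difference 1.58, adjusted p = 0.0205), and called 33433 of all windows. Among the named partners that did not pass in the main test, H3f3b (-1.42, limma adjusted p = 0.0483) and Smarcd2 (-2.06, limma adjusted p = 0.00104) passed with it. Numbers 1 and 4 are the only ones both genotypes share, and the pairing is by number only: the deviations of same-numbered libraries correlated at 0.319 and 0.0190. The 4 calls among the partner TSS windows became 0 on either log2 scale, 1 with edgeR by TMM and 1 by RLE, 12 with the replicate block, and 0 to 7 without 1 library each (0 without any WT library or cKO replicate 4, 1 without cKO replicate 3 and 7 without cKO replicate 1). Leaving out libraries moved the calls in the whole table from 5539 to between 0 and 17979. The adjusted p of the TSS windows ranged over these alternatives from 0.0205 to 0.966 for Trim28, 0.0647 to 0.614 for Smarca4 and 0.109 to 0.597 for Zfp57.

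Some signs turned. With edgeR by TMM and RLE, Hira became -0.0922 and -0.118 and Ctcf -0.0647 and -0.0991 (log2). Median shifts over all windows were -0.108 on log2(value + 0.1) and 0.0860 with edgeR by TMM. Without 1 library each, the TSS difference ranged from -0.311 to 0.0465 for H1foo and from -0.0734 to 0.744 for Hira. The mean over the windows of a gene ranged from -0.495 to 0.0199 for Npm2, from -0.414 to 0.343 for H1foo, from -0.126 to 0.278 for Ctcf, from 0.104 to 0.427 for Hira, from 0.0116 to 0.264 for Smarca4, from 0.468 to 0.823 for Trim28 and from -0.742 to -0.329 for Zfp57. With the windows that overlap the gene, Npm2 gave 0.0495 and Trim28 -0.0843. Depth, down to 29 reads in a TSS window, limits what differences could be called, and 3 libraries per genotype limit every test.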

Other observations

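The 5 windows on each side of the listed windows of each gene were examined after the values were seen. They include the Hira TSS window, and some overlap the annotated span of Npm2 or Trim28. Of these 70 windows, 1 passed in limma on the deposited values (adjusted p under 0.05), where 1.02% of all windows passed. It lay upstream of Smarca4 and overlapped no annotated gene. This window (chr9:21600001-21605000) had 4.61, 3.87 and 5.18 normalized RPKM in the cKO and 1.86, 2.88 and 2.28 in WT, a difference of 2.22 (SE 0.437, limma adjusted p = 0.0486). Its neighbour on the side of the gene (chr9:21605001-21610000, which overlaps the pseudogene Gm7904) had 4.67, 3.61 and 2.92 in the cKO and 1.65, 1.81 and 1.62 in WT, a difference of 2.04 (SE 0.450, limma adjusted p = 0.0658). In both, every cKO library was above every WT library. The Smarca4 TSS window had a lower mean in the cKO, a difference that did not pass (limma adjusted p = 0.181). The neighbour passed with edgeR on whole reads (log2 fold change 1.34, adjusted p = 0.0134) and the first did not (log2 fold change 1.01, adjusted p = 0.169). Without cKO replicate 1, 3 flanking windows passed, and without cKO replicate 3, 0 did, where 17979 and 1761 of all windows passed. The log2 scales and the fits without WT replicate 1, 2 or 4 or cKO replicate 4 called at most 1 window of the whole table and say nothing about these windows. With an intensity trend both windows named here passed (limma adjusted p = 0.0303 and 0.0190).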
